A study of Homo sapiens with 52 samples.

Results

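EZ-005 and UNC1999, the EZH2 inhibitors of an epigenetic compound screen, were described from 4 of the 52 RNA-seq samples of the series. The 4 samples were chosen by compound name and dose in the labels: EZ-005 at 10 and 1 µM and UNC1999 at 10 and 1 µM, each given for 6 h to fusion-positive rhabdomyosarcoma (FP-RMS) cells, a childhood muscle-lineage tumour driven by the PAX3-FOXO1 fusion. Sample titles name the line RH41 while the cell line label reads RH4. The labels give EZH2 as the target of EZ-005 and EZH1 as that of UNC1999, which is known to inhibit both enzymes. The first reference was the 4 DMSO (solvent) samples of the screen, in pairs at 0.2% and 0.1% DMSO and also taken at 6 h. The second reference was the 24 samples of the 12 other compounds sequenced on the same flow cell as the EZH2 inhibitors, at 10 and 1 µM. Bromosporin, Merck60, OJI-1, SGC-CBP30 and WT161 were grouped as acting on the histone acetylation axis. LSD-519, LSD-690, PFI-2, SGC0946 and UNC0638 were grouped under methylation, and PFI-3 and the MEK inhibitor trametinib under neither. All are active compounds, so this reference is not an untreated one. Each compound had 1 sample per dose, so both doses of a compound stood in for its replicates. The labels do not say that samples came from separate cultures. In the fits over the screen, p-values rest mostly on the spread between the 2 doses of a compound, shared over all 20 compounds. The spread among the 4 DMSO samples, which may be technical, adds to it. Against the other compounds the spread is that between compound means. None of these is a spread between replicate cultures.

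EZH2 is the catalytic subunit of Polycomb repressive complex 2 (PRC2), which methylates histone H3 at lysine 27 (H3K27me3) and keeps developmental genes silent. Its partners EED and SUZ12 are required for activity, and EZH1 is a paralogue that can take its place. Inhibitors block the methyl transfer, but existing H3K27me3 is lost mainly as chromatin is replicated, so silent genes commonly respond over days. The question here was whether genes silent in DMSO rose at 6 h.

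The EZH2 inhibitor samples held 8647949 to 13752502 whole reads, the 4 DMSO samples 16772069 to 22400976 and the 24 other samples 5737938 to 21137888, worked out from the steps between the deposited TPM values. TPM is a level scaled for transcript length and library size. The DMSO samples were run on 2 other flow cells, C4JM1ACXX and H144EBGXX, so compound and flow cell cannot be told apart in any comparison with DMSO, and the comparison with the 12 other compounds is the within-batch value. Within a DMSO concentration the 2 flow cells differed by a set of genes common to both concentrations, and what was left varied as counting noise (ratio of variances 1.03 over 10378 genes), so the 2 DMSO samples of a concentration may each be a single library sequenced again. A second fit therefore averaged them by concentration. The 13 rhabdomyosarcoma identity markers summed to 3563 to 4005 TPM in the EZH2 inhibitor samples and 4216 to 4388 TPM in DMSO. Summed blood markers stayed at or below 4.58 TPM, endothelial and liver markers at or below 1.91 TPM and epithelial markers at or below 0.552 TPM in these 8 samples.

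Silent genes were those with a mean DMSO TPM under 0.5, names with common small RNA prefixes left out (RNVU1 was not among these), which gave 10681 of 27043 genes. Few of them reached a TPM of 1 after EZH2 inhibition, and the 2 compounds lay towards the low end of the flow cell. The share of silent genes at TPM 1 or more was 0.571% (61 genes) with EZ-005 at 10 µM, 0.440% (47 genes) at 1 µM, 0.496% (53 genes) with UNC1999 at 10 µM and 0.758% (81 genes) at 1 µM. The EZ-005 share was higher at 10 µM and the UNC1999 share was higher at 1 µM. By the mean of both doses EZ-005 (0.506%) ranked 12 and UNC1999 (0.627%) ranked 10 of 14 compounds. The range ran from 0.332% for OJI-1 to 2.59% for WT161, both aimed at histone deacetylases. The EZH2 inhibitors averaged 0.566% against 1.14% for the 12 other compounds, a difference of -0.571 percentage points that did not pass an exact two-sided permutation test over compounds (p = 0.330, 91 arrangements, smallest possible p 0.011). The summed TPM of silent genes gave the same picture, with 761 against 926 TPM and an exact permutation p of 0.341.

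**Figure D1:**
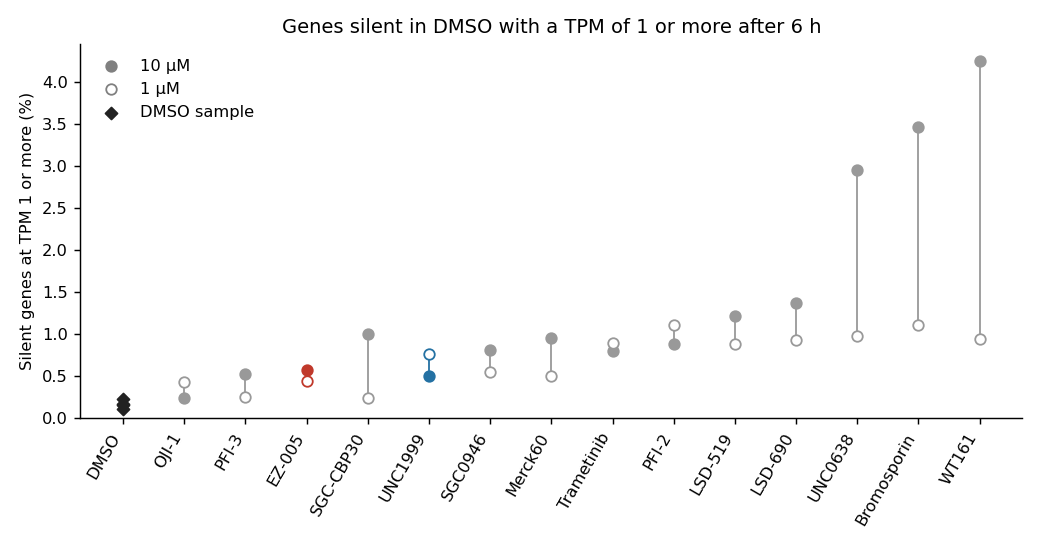
Share of the 10681 genes silent in DMSO that had a TPM of 1 or more (vertical axis, %), for DMSO and the 14 compounds of the flow cell ordered by their mean. Filled circles are 10 µM, open circles 1 µM, and each diamond is a DMSO sample left out when silent genes were chosen. EZ-005 (red) lay at 0.571% and 0.440% and UNC1999 (blue) at 0.496% and 0.758%, below the 2.96% to 4.25% of the 3 highest samples.

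DMSO itself is low here by construction, since it chose the genes. When each DMSO sample was left out in turn and the silent genes chosen again from the other 3, the left-out sample reached 0.103% to 0.225% and the EZH2 inhibitor samples 0.440% to 0.805% over the same genes. Summed over those genes, the left-out sample held 689 to 714 TPM and the EZH2 inhibitor samples 732 to 823 TPM. Compound and flow cell cannot be told apart in either measure. Depth also moves the share at TPM 1 or more, because a single read is worth more TPM in a shallower sample. With every sample thinned to 5737938 reads, 1.31% to 1.56% of silent genes held at least 5 reads in DMSO. In the EZH2 inhibitor samples 1.61% to 2.18% did. The genes were here those chosen from all DMSO samples, so DMSO was again low by construction. The gap between these ranges is therefore no measure of a rise. The mean of the flow cell's compounds at that depth ran from 1.44% for OJI-1 to 4.16% for WT161, with EZ-005 at 1.74% and UNC1999 at 1.96%. The means of bromosporin, Merck60 and PFI-2 rest in part on their 10 µM read numbers, which may be too high as described above.

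Gene by gene, no silent gene was called for both inhibitors together, against DMSO or against the flow cell. A call needed an adjusted p below 0.05 in limma, over all 16002 genes tested, together with a shift of 1 or more in either direction on the log2(TPM + 1) scale. Of the 1120 silent genes that passed the filter of TPM 1 in at least 2 screen samples, 0 were called in the EZH2 inhibitors against DMSO, with 30 higher and 4 lower at an unadjusted p below 0.05, where 2327 of all 16002 genes had such a p. Choosing these genes as low in the same DMSO samples favours the higher direction. Against the 12 other compounds 0 were called, with 13 higher and 7 lower at that level, where 150 of all genes reached it. In the other comparisons 3 silent genes were called: LOC105376430 in EZ-005 against DMSO, LOC105379054 in EZ-005 against the flow cell and HSPA6 at 10 against 1 µM, each described with its values further on. The filter keeps silent genes that rose in some sample of the screen, so these counts do not speak for all silent genes. The voom fit on whole reads called 2, LOC101928163 and TXNDC12-AS1.

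No silent gene was at TPM 1 or more in all 4 EZH2 inhibitor samples. At both doses of a compound there were 5 such genes for EZ-005 and 10 for UNC1999, against 3 for PFI-3 and 83 for bromosporin, the ends of the range among the other 12. These 15 genes were named after their values were seen. For EZ-005 they were RNVU1-20, a U1 small nuclear RNA variant, CAPN9, a calpain protease, C11orf65, LOC105376430 and LOC105374205. Each rested on 1 to 10 reads per EZ-005 sample. LOC105376430 was at 1.53 and 2.25 TPM with EZ-005 at 10 and 1 µM, 0 and 0.600 with UNC1999, and 0 to 0.459 in DMSO. It rested on 3 and 4 reads. It was also among the calls of EZ-005 against DMSO, but the same DMSO values had chosen it as silent, and the call held in 8 of 19 alternatives. For UNC1999 they were GPRC5D, LOC102724050, LOC105373519, PGM5P3-AS1, SPAG4, LOC344887, CXCL8, LINC01615, VLDLR-AS1 and SRPX2. CXCL8, a neutrophil-attracting chemokine, was at 2.08 and 0.706 TPM with EZ-005 at 10 and 1 µM, at 1.53 and 1.13 TPM with UNC1999, and at 0.286 to 0.433 TPM in DMSO. It also reached 20.5 TPM in another compound's sample. LOC344887 alone among the 15 stayed under TPM 1 in all 24 other samples, where its highest value was 0.996 TPM.

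No core gene of the enzyme complex passed a call. EZH2 (hg19 chr7:148504464-148581441) was at 95.9 and 123.6 TPM with EZ-005 at 10 and 1 µM and at 126.3 and 140.0 TPM with UNC1999, against 112.7 to 123.2 TPM in DMSO. The groups overlapped, and the difference was 0.03 ± 0.10 (log2, SE, limma adjusted p = 0.949). EED, which reads H3K27me3, differed by -0.10 ± 0.09 and SUZ12 by 0.15 ± 0.09. EZH1 was at 29.6 and 21.6 TPM with EZ-005, 39.4 and 28.5 TPM with UNC1999 and 18.7 to 22.7 TPM in DMSO. Both UNC1999 samples lay above DMSO while EZ-005 at 1 µM lay within it. EZH1 was higher by 0.49 ± 0.12 (limma adjusted p = 0.028), under the fold threshold. Against the 12 other compounds its difference was 0.27 ± 0.17 (adjusted p = 1.00). Of the 6 core PRC2 genes 0 were called in either direction, where 0.075% of all genes were called higher and 0.0312% lower against DMSO, and EZH1 was their only gene with an adjusted p below 0.05, where 0.431% of all genes passed in that direction. The accessory subunits (7 tested) and PRC1, the complex that binds H3K27me3 (18 tested), also held 0 calls. KDM6A and KDM6B, which remove H3K27me3, differed by 0.35 ± 0.20 and 0.12 ± 0.22 from DMSO and did not pass.

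No classical Polycomb target was called. Among 117 developmental regulators that PRC2 is known to silence in many cell types, 56 passed the filter and 0 were called. Of all genes tested 0.075% were called higher and 0.0312% lower, so 0 calls in a list of this size says little about its genes. The other 61 included 30 listed at 0 in all 8 samples, among them SOX1, NKX2-1, OLIG3, NEUROD1 and GSX2. The median log2 difference of the 56 from DMSO was -0.16, against 0.02 over all genes tested, and 0.04 against the 12 other compounds, where all genes had 0.02. In 13 of the 56 all 4 EZH2 inhibitor samples lay below all 4 DMSO samples and in 2 above them, where 9.28% and 11.8% of all genes did. PITX1, a limb and pituitary homeobox gene, was lowest at 4.89 to 7.08 TPM against 9.84 to 11.2 TPM in DMSO, a difference of -0.71 ± 0.26 (limma adjusted p = 0.183). In the 24 other flow-cell samples PITX1 had a median of 6.85 TPM. MSX1 was at 5.80 to 6.996 against 8.89 to 10.8 TPM (-0.54 ± 0.23, adjusted p = 0.257). SOX21 was at 1.12 and 1.96 TPM with EZ-005, above all 24 other flow-cell samples (highest 0.998), and at 0.894 and 0.551 TPM with UNC1999. On this flow cell only the EZ-005 samples reached the TPM of 1 that the filter asks for. SOX21 may thus have been tested because it was high there, and its separation is no independent support. Its difference from DMSO with EZ-005 was 0.66 ± 0.18 (adjusted p = 0.097). PROX1 was at 40.5 to 61.9 TPM against 35.4 to 40.6 TPM in DMSO (0.39 ± 0.22, adjusted p = 0.424).

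Growth regulators that Polycomb silences in other tumours gave 0 calls among 16 tested, where 0.075% of all genes were called higher and 0.0312% lower. CDKN2A, which encodes the cell cycle inhibitor p16 and is a classical PRC2 target, was already at 124.4 to 142.1 TPM in DMSO. It was at 120.6 and 102.3 TPM with EZ-005 and 93.6 and 107.8 TPM with UNC1999, below DMSO in 4 of 4 samples (-0.35 ± 0.08, limma adjusted p = 0.028, under the fold threshold). The 24 other flow-cell samples had a median of 110.0 TPM, and the difference from them was -0.06 ± 0.10 (adjusted p = 1.00). CDKN1A, which encodes p21, was at 50.6 TPM with EZ-005 at 10 µM and 29.2 to 30.9 TPM in the other 3 samples, against 24.9 to 29.2 TPM in DMSO (0.35 ± 0.33, adjusted p = 0.677). CDKN1C stayed between 1.17 and 1.56 TPM, within the DMSO range of 1.10 to 1.59 TPM.

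The calls against DMSO were led by genes of sterol synthesis. Against DMSO 17 genes were called, 12 higher and 5 lower, and 4 of them were small RNA names on at most 2 reads per EZH2 inhibitor sample. Of the 13 others, 7 belong to a list of 28 cholesterol synthesis and uptake genes, all higher, among them HMGCS1, FDFT1, MSMO1, HSD17B7 and STARD4. These genes are driven by the transcription factor SREBP2 (gene SREBF2), which is released when membrane sterol falls. The list was chosen with earlier results of these data known and is not independent evidence of its direction. Of its 26 genes tested, 7 were called higher and 0 lower, where 0.075% of all genes were called higher. By the adjusted p alone 11 passed higher, where 0.431% of all genes did and 1.08% passed it lower. In 21 all 4 EZH2 inhibitor samples lay above all 4 DMSO samples and in 1 below them, where 11.8% and 9.28% of all genes did. The median log2 difference was 0.76, against 0.02 over all genes.

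HMGCS1 (hg19 chr5:43287572-43313614), which makes the precursor HMG-CoA, was at 331 and 209.8 TPM with EZ-005 at 10 and 1 µM and at 180.0 and 173 TPM with UNC1999. DMSO was at 82.0, 83.8, 90.5 and 94.1 TPM. The groups did not overlap, and EZ-005 at 10 µM was highest. The difference was 1.29 ± 0.30 (log2, SE, limma adjusted p = 0.020). FDFT1, squalene synthase, was at 667 and 483 TPM with EZ-005, 449 and 419 TPM with UNC1999 and 218 to 239 TPM in DMSO (1.12 ± 0.24, limma adjusted p = 0.013). Both genes kept the same order of samples, EZ-005 at 10 µM above EZ-005 at 1 µM and both UNC1999 samples below or near it. MSMO1, a sterol demethylase subunit, was higher by 1.11 ± 0.29 (adjusted p = 0.047). STARD4, a sterol carrier, was higher by 1.18 ± 0.26 (adjusted p = 0.015).

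HSD17B7, a sterol ketoreductase, was at 90.8 and 59.5 TPM with EZ-005, 59.8 and 44.4 TPM with UNC1999 and 25.3 to 29.5 TPM in DMSO (1.16 ± 0.20, adjusted p = 0.0024). Its pseudogene HSD17B7P2 was higher by 1.35 ± 0.24 (adjusted p = 0.0037), and how reads were split between the 2 copies is uncertain. Other members missed a call. INSIG1, which retains SREBP in the endoplasmic reticulum when sterol is plentiful, differed by 1.29 ± 0.36 (limma adjusted p = 0.0695), and was called in 4 of 20 alternatives, among them the fit with a term for the high or low level (adjusted p = 0.029). SREBF2 was at 213.5 to 288 TPM against 176.2 to 193.6 TPM in DMSO (0.39 ± 0.12, adjusted p = 0.099). PMVK was the lowest member (-0.24 ± 0.11, adjusted p = 0.300) and MYLIP, a ubiquitin ligase, the next lowest (0.04 ± 0.20).

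**Figure D2:**
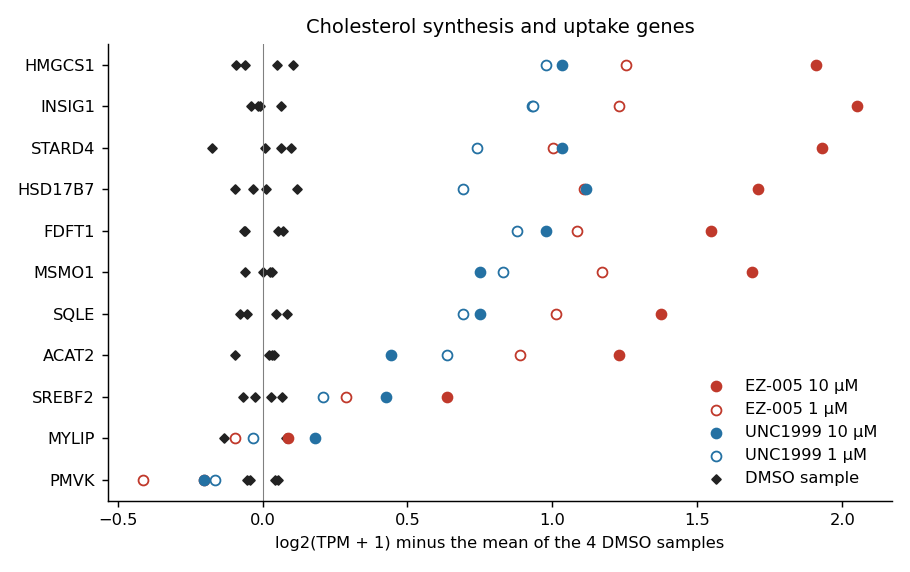
The 11 cholesterol genes described in the text (vertical axis) by log2(TPM + 1) minus the mean of the 4 DMSO samples (horizontal axis). Red is EZ-005, blue UNC1999, filled 10 µM, open 1 µM, and diamonds are the DMSO samples. In 9 of the 11 genes, MYLIP and PMVK being the exceptions, all coloured points lie to the right of all diamonds, where 11.8% of all genes tested did.

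The promoters of 4 called members are shown as a description of their sequence. Sequences were RefSeq promoters of build GRCh38.p14, 250 bases before to 50 after the gene start, read along the gene's strand, while all other coordinates are hg19. Capitals mark CCAAT or its reverse complement ATTGG, the box bound by the factor NF-Y. HMGCS1 lies at chr5:43313363-43313662 (minus strand), STARD4 at chr5:111512486-111512785 (minus), MSMO1 at chr4:165327419-165327718 (plus) and HSD17B7 at chr1:162790452-162790751 (plus). FDFT1 had no promoter entry.
HMGCS1: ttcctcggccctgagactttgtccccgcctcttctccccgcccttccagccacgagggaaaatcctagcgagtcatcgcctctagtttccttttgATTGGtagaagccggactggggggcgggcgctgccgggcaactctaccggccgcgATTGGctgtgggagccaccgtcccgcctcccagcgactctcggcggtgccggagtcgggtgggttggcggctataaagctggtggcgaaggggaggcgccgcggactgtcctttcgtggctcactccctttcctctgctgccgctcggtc
STARD4: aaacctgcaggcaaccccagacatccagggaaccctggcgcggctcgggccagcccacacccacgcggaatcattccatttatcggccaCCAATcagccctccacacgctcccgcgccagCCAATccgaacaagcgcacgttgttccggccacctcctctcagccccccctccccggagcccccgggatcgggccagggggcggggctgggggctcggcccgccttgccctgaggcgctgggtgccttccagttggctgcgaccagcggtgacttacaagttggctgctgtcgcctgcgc
MSMO1: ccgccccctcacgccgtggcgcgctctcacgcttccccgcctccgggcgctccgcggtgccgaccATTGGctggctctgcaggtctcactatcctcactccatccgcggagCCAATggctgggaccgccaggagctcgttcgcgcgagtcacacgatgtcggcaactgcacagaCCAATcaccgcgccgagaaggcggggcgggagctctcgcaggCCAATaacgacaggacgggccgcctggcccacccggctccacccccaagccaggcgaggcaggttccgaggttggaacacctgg
HSD17B7: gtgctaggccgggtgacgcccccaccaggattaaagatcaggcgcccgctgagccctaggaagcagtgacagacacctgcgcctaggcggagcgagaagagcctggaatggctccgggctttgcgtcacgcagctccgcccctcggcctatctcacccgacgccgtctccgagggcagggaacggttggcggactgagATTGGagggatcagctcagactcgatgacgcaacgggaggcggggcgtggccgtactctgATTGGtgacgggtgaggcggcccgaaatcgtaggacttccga
HMGCS1, STARD4 and HSD17B7 held 2 boxes each and MSMO1 held 4. Of the 28 list genes 20 had a promoter entry and 16 of these (80.0%) held the box on either strand, against 35.7% of all 27236 promoters and 36.5% of those of tested genes. The letters TCACNCCAC, a core of the sterol regulatory element, were found on either strand in 1 of the 20 (5.00%), that of SREBF2, and in 1.15% of all promoters. A match is a description of these letters in this window and says nothing of binding. Whether the box has any part in the higher levels was not tested.

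Against the 12 other compounds of the flow cell the sterol genes stood less apart. Of the 26, 0 were called and 0 had an unadjusted p below 0.05 in limma, where 0.00625% of all genes were called, with 22 above and 4 below 0 and a median difference of 0.50 against 0.02 over all genes. HMGCS1 had a median of 112.1 TPM in those 24 samples and a highest value of 828 TPM, and the EZH2 inhibitors differed by 0.79 ± 0.48 (adjusted p = 1.00). Summed over all 28 genes, DMSO was at 1947 to 2056 TPM, EZ-005 at 5099 and 3549 TPM and UNC1999 at 3205 and 3094 TPM. By the mean of both doses EZ-005 (4324 TPM) ranked 2 and UNC1999 (3150 TPM) ranked 5 of 14. UNC0638, an inhibitor of the methyltransferases G9a and GLP, was highest at 5961 TPM and Merck60, a histone deacetylase inhibitor, lowest at 1611 TPM. The EZH2 inhibitors were thus near the upper end but not separate from the other compounds.

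**Figure D3:**
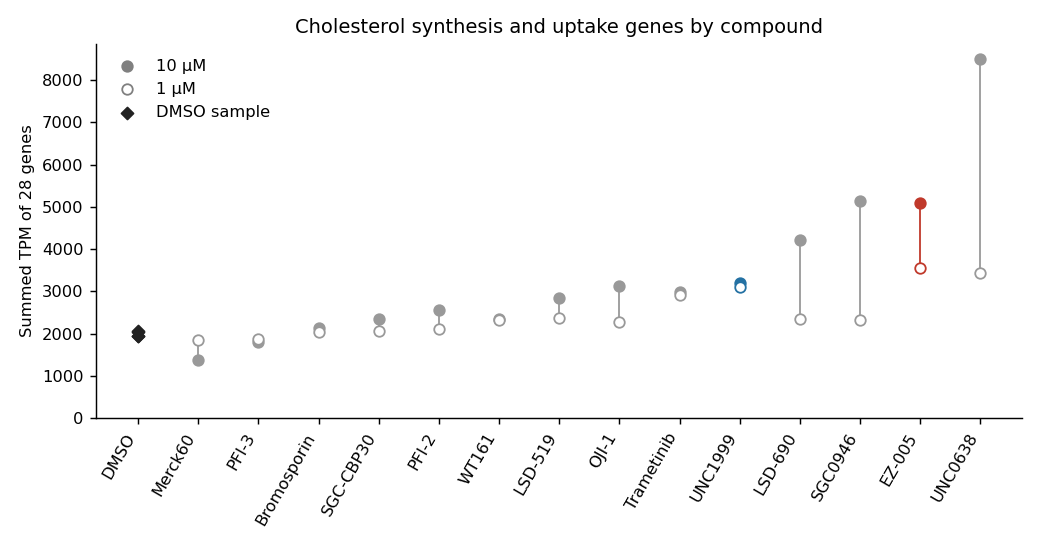
Summed TPM of 28 cholesterol synthesis and uptake genes (vertical axis) in DMSO and the 14 compounds of the flow cell, ordered by the mean of both doses. Filled circles are 10 µM, open circles 1 µM, diamonds DMSO samples. EZ-005 (red, 5099 and 3549) and UNC1999 (blue, 3205 and 3094) lie above DMSO and below UNC0638 at 10 µM (8498).

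The sterol calls depended on the reference and on the higher dose. With DMSO averaged by concentration 5 genes were called and 0 of them were sterol genes, with DMSO of C4JM1ACXX alone 3 and 0, and with DMSO of H144EBGXX alone 19 and 1 (HSD17B7). With only the 1 µM samples 11 genes were called, 0 of them sterol genes, and with only the 10 µM samples 55, of which 7 were. Leaving out EZ-005 at 10 µM left 1 sterol gene called, leaving out UNC1999 at 10 µM also 1, and leaving out any DMSO sample 3. The log2 difference of HMGCS1 stayed between 1.12 and 1.47 over these and the other alternatives, and its adjusted p ran from 0.0061 to 0.286.

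The remaining calls against DMSO were mixed. IFIT3 is described with the interferon genes. OLMALINC, a long noncoding RNA next to the SCD gene, was at 18.8 and 10.4 TPM with EZ-005, 9.75 and 7.16 TPM with UNC1999 and 3.70 to 5.70 TPM in DMSO (1.10 ± 0.26, limma adjusted p = 0.028). ATP5E, an ATP synthase subunit, was at 73.3 to 97.8 TPM against 200.4, 537.5, 203.9 and 544.3 TPM in DMSO (-1.95 ± 0.26, adjusted p = 1.9e-04). The 2 DMSO flow cells themselves differed here, and the 24 other samples had a median of 89.6 TPM, level with the EZH2 inhibitors. GNG10, a G protein subunit, was likewise at 0.869 to 2.40 TPM against 2.79 and 3.25 TPM on C4JM1ACXX and 11.4 and 12.4 TPM on H144EBGXX, with a median of 1.51 TPM in the other samples. MTRNR2L2, whose sequence copies part of the mitochondrial ribosomal RNA so that its reads may belong elsewhere, was at 4.65 to 8.72 TPM against 0.950 to 3.38 TPM, with a median of 5.47 TPM in the other samples.

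The interferon-induced genes IFIT3 and IFIT2 were highest at 10 µM. IFIT3 (hg19 chr10:91087576-91100725) and IFIT2 (chr10:91061706-91069033) encode proteins that bind viral RNA and are induced by interferon. IFIT3 was at 17.9 and 3.48 TPM with EZ-005 at 10 and 1 µM, 6.13 and 4.91 TPM with UNC1999 and 2.38 to 2.77 TPM in DMSO. All 4 samples lay above DMSO, and the difference was 1.13 ± 0.28 (limma adjusted p = 0.034). Both 10 µM samples also lay above all 24 other flow-cell samples (highest 5.91 TPM), and the 2 compounds ranked 1 and 2 of 14, although the difference from the other compounds, 1.07 ± 0.38, did not pass (adjusted p = 1.00). The call of IFIT3 against DMSO held in 6 of 19 alternatives, with a log2 difference of 0.55 to 1.72. IFIT2 was at 28.7 and 3.27 TPM with EZ-005, 9.59 and 4.79 TPM with UNC1999 and 2.41 to 3.44 TPM in DMSO. EZ-005 at 1 µM lay within DMSO, both 10 µM samples lay above all other flow-cell samples (highest 7.16 TPM), and the difference from DMSO was 1.28 ± 0.35 (adjusted p = 0.056).

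The rest of the antigen presentation and interferon list held no call. Of 30 genes 11 were tested, and 8 were listed at 0 in all 8 samples, HLA-C, HLA-E and TAP1 among them. In the list 1 (IFIT3) was called higher and 0 lower, where 0.075% and 0.0312% of all genes were. IFIT1 was at 6.74 TPM with EZ-005 at 10 µM and 1.88 to 2.74 TPM in the other 3, against 1.19 to 1.76 TPM in DMSO (0.66 ± 0.24, limma adjusted p = 0.182). ISG15, a ubiquitin-like interferon-induced protein, was at 115.0 TPM with EZ-005 at 10 µM, 55.2 TPM at 1 µM and 43.7 and 44.9 TPM with UNC1999, against 64.5 to 72.2 TPM in DMSO.

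Between 10 and 1 µM, with both compounds in 1 dose term, 6 genes were called (0.0375% of those tested), 3 higher and 3 lower at 10 µM. They were IFIT2, HSPA6, KCTD12, LOC100505920 and 2 small RNA names on at most 2 reads, and were named after the calls were seen. IFIT2 differed by 1.83 ± 0.34 (limma adjusted p = 0.034). HSPA6, a strictly inducible heat shock protein that was silent in DMSO, was at 2.08 and 1.36 TPM at 10 µM and 0.128 and 0 TPM at 1 µM, against 0.129 to 0.522 TPM in DMSO (1.35 ± 0.27, adjusted p = 0.039). The 2 samples at 10 µM also lay above all 24 other flow-cell samples, whose highest was 1.22 TPM. KCTD12, a potassium channel tetramerisation domain protein, was at 8.87 and 6.82 TPM at 10 µM and 17.2 and 20.7 TPM at 1 µM, on both sides of DMSO at 12.2 to 13.7 TPM (-1.18 ± 0.23, adjusted p = 0.039). With a pseudocount of 0.1 the dose calls of IFIT2 (adjusted p = 0.052) and HSPA6 (adjusted p = 0.091) were lost, and with median-ratio scaling those of HSPA6 (adjusted p = 0.057) and KCTD12 (adjusted p = 0.071). LOC100505920 was at 0.599 and 0 TPM at 10 µM and 3.97 and 1.77 TPM at 1 µM (-1.55 ± 0.24, adjusted p = 0.010).

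EGR1 and DDIT3 differed as much by dose but missed the test. EGR1, an immediate early transcription factor, was at 102.2 and 55.5 TPM at 10 µM and 5.57 and 4.41 TPM at 1 µM with EZ-005 and UNC1999, against 5.14 to 6.35 TPM in DMSO (3.68 ± 1.08, limma adjusted p = 0.185). DDIT3, the stress factor CHOP, was at 122.7 and 122.3 TPM at 10 µM, 49.3 and 54.9 TPM at 1 µM and 39.7 to 44.3 TPM in DMSO (1.22 ± 0.31, adjusted p = 0.122). In both genes 1 of the 24 other flow-cell samples, UNC0638 at 10 µM, lay above EZ-005 at 10 µM. XBP1, which drives the unfolded protein response, was at 193.1 and 190.1 TPM at 10 µM and 134.5 and 133.1 TPM at 1 µM, against 111.2 to 117.8 TPM in DMSO. It was higher than DMSO by 0.48 ± 0.11 (adjusted p = 0.021, under the fold threshold), and its dose difference was 0.51 ± 0.12 (adjusted p = 0.098). Of 24 amino acid and endoplasmic reticulum stress genes 0 were called by dose, 21 were above 0 and the median was 0.44, where all genes had a median of 0.00. Of 20 genes of G1/S and replication 19 were lower at 10 µM with 0 called, 11 at an unadjusted p below 0.05 where 1566 of all 16002 genes were, and a median of -0.35. Their sum was 3039 and 2984 TPM at 10 µM, 3828 and 3903 TPM at 1 µM and 3778 to 3835 TPM in DMSO. All 26 sterol genes were higher at 10 µM, with 0 called and a median of 0.26.

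**Figure D4:**
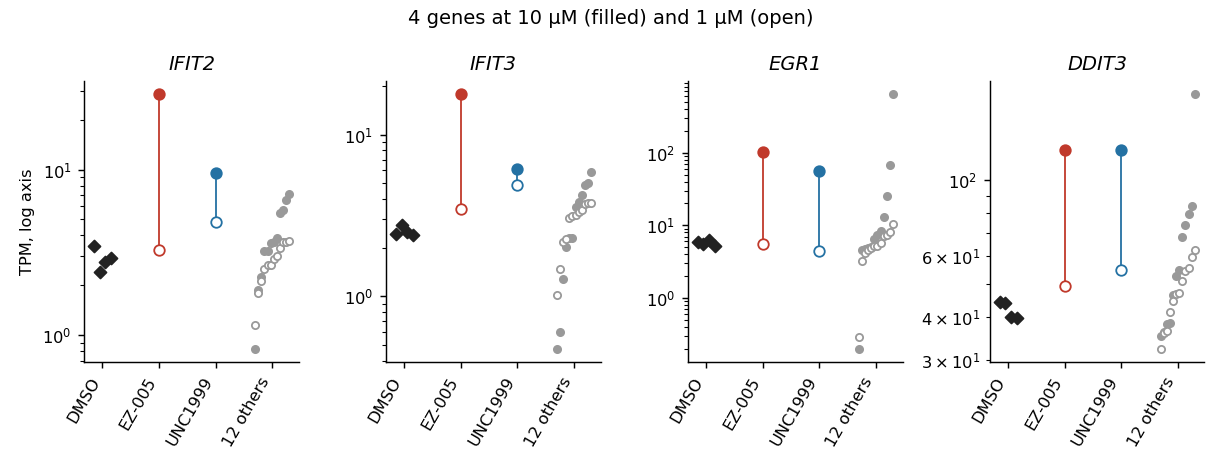
TPM on a log axis of IFIT2, IFIT3, EGR1 and DDIT3 in the 4 DMSO samples (diamonds), EZ-005 (red), UNC1999 (blue) and the 12 other compounds of the flow cell (grey), filled at 10 µM and open at 1 µM. In each panel both filled EZH2 inhibitor points lie above their open points and above DMSO.

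The 2 inhibitors, the only pair compared, differed in few genes. With both doses as replicates 4 genes were called (0.025% of those tested), all lower with EZ-005, and 2 were the small RNA names MIR4723 and MIR6890 on at most 2 reads. COL1A1 (hg19 chr17:48261457-48279000), the main fibrillar collagen chain, was at 78.2 TPM with EZ-005 and 152.2 TPM with UNC1999 at 10 µM, and at 83.1 and 190.1 TPM at 1 µM. DMSO was at 89.7 to 102.0 TPM. The difference was -1.07 ± 0.18 (95% interval -1.44 to -0.70, limma adjusted p = 0.012). CCDC80 (chr3:112323233-112359990), a secreted matrix protein, was at 10.5 and 24.7 TPM at 10 µM and at 14.96 and 34.4 TPM at 1 µM, with 12.8 to 14.3 TPM in DMSO. The difference was -1.16 ± 0.18 (95% interval -1.52 to -0.79, adjusted p = 0.0039).

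In both genes EZ-005 lay near or below DMSO and UNC1999 above it. Other compounds also lay on both sides. OJI-1, LSD-690 and LSD-519 held COL1A1 at 65.4 to 94.3 TPM at both doses, while PFI-3, SGC0946 and bromosporin held it at 175.1 to 218 TPM. CCDC80 was at 11.4 to 14.5 TPM in the first 3 compounds and at 22.7 to 35.1 TPM in the second 3. COL1A1 and CCDC80 were called in 6 and 7 of 10 alternatives. A fit of the 4 samples of the 2 compounds alone called 0 genes in limma, with 897 at an unadjusted p below 0.05.

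**Figure D5:**
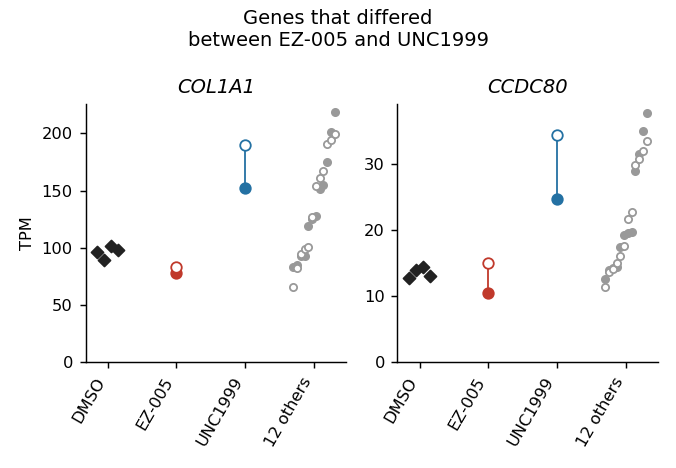
TPM of COL1A1 and CCDC80 in the 4 DMSO samples (diamonds), EZ-005 (red), UNC1999 (blue) and the 12 other compounds of the flow cell (grey), filled at 10 µM and open at 1 µM. Both EZ-005 points lie below both UNC1999 points in each panel, and the other compounds lie on both sides of DMSO, none of them as low in CCDC80 as EZ-005 at 10 µM.

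For sterol genes the 2 compounds were not told apart by the test. At matched doses EZ-005 was higher in 24 of 26 genes at 10 µM (median log2 difference 0.67) and in 22 of 26 at 1 µM (median 0.21), with 1 sample per compound and dose and so no test at a single dose. With both doses together 0 were called and the median was 0.45. For HMGCS1 the difference was 0.57 ± 0.42 (95% interval -0.28 to 1.43, limma adjusted p = 1.00). For HSD17B7 it was 0.50 ± 0.28 (interval -0.07 to 1.08). For EZH2 it was -0.29 ± 0.14 (interval -0.57 to -0.00079, adjusted p = 0.935).

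Each compound was also set against DMSO alone, with the same 4 DMSO samples in both. EZ-005 gave 16 calls, 12 higher (0.075%) and 4 lower (0.025%), and UNC1999 gave 14, 8 higher (0.05%) and 6 lower (0.0375%). Of the 26 sterol genes 6 were called higher with EZ-005 and 0 with UNC1999, with medians of 1.02 and 0.53. The count of 6 for EZ-005 was 0 with DMSO averaged by concentration, 0 without EZ-005 at 10 µM, 2 without EZ-005 at 1 µM, 1 without any of the 4 DMSO samples in turn and 12 with a term for the high or low level. The difference between the compounds in these counts was not tested. The EZ-005 calls outside the genes above included SCD, the desaturase that makes monounsaturated fatty acids, at 901 and 699 TPM against 334 to 370 TPM in DMSO (1.17 ± 0.22, limma adjusted p = 0.010). UNC1999 was at 486 and 553 TPM for SCD. SQLE, squalene epoxidase, was higher by 1.19 ± 0.26 (adjusted p = 0.026) and ACAT2, which makes acetoacetyl-CoA, by 1.06 ± 0.24 (adjusted p = 0.032). UNC1999 calls not shared with EZ-005 were CCDC80 and GABRE higher and TAGLN, CCDC85B, SMIM22 and CAPG lower. TAGLN, the smooth muscle actin-binding protein transgelin, was at 29.4 and 45.3 TPM with UNC1999 at 10 and 1 µM, 50.1 and 69.8 TPM with EZ-005 and 71.0 to 80.6 TPM in DMSO (-1.06 ± 0.17, adjusted p = 0.0029). CCDC85B was at 17.6 and 29.8 TPM with UNC1999 against 46.9 to 57.8 TPM (-1.13 ± 0.23, adjusted p = 0.014). GABRE, a GABA receptor subunit, was at 19.6 and 18.7 TPM against 7.82 to 10.1 TPM (1.03 ± 0.18, adjusted p = 0.0059). CAPG was listed at 0 in both UNC1999 samples and at 0.672 to 1.54 TPM in DMSO. The contrast of the 2 compounds in TAGLN, 0.68 ± 0.19, did not pass (adjusted p = 0.317).

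Against the 12 other compounds each inhibitor gave calls of very low genes. EZ-005 gave 13 (0.0812%), 12 of them small RNA names, and UNC1999 7 (0.0437%), all small RNA names, each on at most 10 reads in every EZH2 inhibitor sample. The call of both inhibitors together was MIR8070, listed at 0 in the 24 other samples and resting on 1 read in each of 2 samples. The other EZ-005 gene was LOC105379054, silent in DMSO, at 0.643 and 4.26 TPM with EZ-005 and 1.89 and 0 TPM with UNC1999.

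The muscle programme of the tumour cells gave 0 calls. MYOD1, the master regulator of muscle fate, was at 592 and 503 TPM with EZ-005, 486 and 388 TPM with UNC1999 and 639.7 to 648 TPM in DMSO (-0.40 ± 0.24, limma adjusted p = 0.469). It lay below DMSO in 4 of 4 samples, but EZ-005 at 10 µM lay above all 24 other flow-cell samples (highest 558 TPM). MYOG, which drives terminal differentiation, was at 479 to 578 TPM against 572 to 587 TPM (-0.14 ± 0.31, adjusted p = 0.892). SOX8 was at 493 to 613 TPM against 664 to 707 TPM (-0.36 ± 0.11, adjusted p = 0.114). All 6 core regulatory factors were below DMSO, with a median of -0.11, and all 6 above the other compounds, with a median of 0.30, so the sign depended on the reference. Their sum was 1541 to 1997 TPM with the EZH2 inhibitors and 2096 to 2136 TPM in DMSO. In the other flow-cell samples it ran from 506 to 2431 TPM (median 1647). Those samples include inhibitors of the acetylation axis, a group that the paper reports to lower these factors. Their part in the sign was not tested. Of 26 muscle differentiation genes tested 0 were called, with a median of -0.16 against DMSO and 0.01 against the other compounds. By the adjusted p alone 2 passed lower and 0 higher against DMSO, where 1.08% and 0.431% of all genes did. In 7 all 4 EZH2 inhibitor samples lay below all 4 DMSO samples and in 2 above them, where 9.28% and 11.8% of all genes did. TNNI2, a troponin of fast muscle, was the lowest (-0.50 ± 0.17, adjusted p = 0.136) and CASQ2, a calcium store protein, the highest (0.46 ± 0.13, adjusted p = 0.069).

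The other lists held 0 calls against DMSO, where 0.075% of all genes were called higher and 0.0312% lower. They are given by their lowest and, in most, their highest member. Of 31 lysosome and autophagy genes tested, the protease CTSD was lowest (-0.37, limma adjusted p = 0.023, under the fold threshold) and the autophagy gene GABARAPL1 highest (0.74, adjusted p = 0.209), with a median of 0.11. Of 15 p53 targets ZMAT3 was lowest (-0.18) and GDF15 highest (0.54), with a median of 0.14. Of 14 immediate early genes JUN was lowest (-0.30) and EGR1 highest (1.67), with a median of 0.17. Among 20 G1/S and replication genes CCND1, which encodes cyclin D1, was lowest (-0.63), with a median of -0.13. Among 20 mitosis genes the kinase PLK1 was lowest (-0.40) and CENPE highest (0.20), with a median of -0.02. Of 10 metallothionein, heat shock and oxidative response genes tested MT2A was lowest (-0.25) and MT1X highest (0.36), and 6 others were listed at 0. In PRC1 CBX2 was lowest (-0.35, adjusted p = 0.072) and PHC1 highest (0.31). In the PRC2 accessory list PHF19 was lowest (-0.13) and C10orf12 highest (0.26).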

How the data were processed

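Gene-level tables of the 44 screen samples were used, of 52 in the series. Per the study's methods, the authors sequenced poly-A selected RNA, used STAR to align reads to hg19, and took expression from RSEM with the UCSC reference. The labels give the libraries as paired-end. The submitters' processing notes also name edgeR and GRCh37. The deposited values are TPM, normalised by the authors for transcript length and library size, so they carry no depth of their own. The TPM values of all 23037 genes above 0 in the screen were whole multiples of a common step (100% within 0.02 reads), which gave read numbers. These describe depth, give the reads printed for single genes, and serve the thinned shares of silent genes and the voom fit. For bromosporin, Merck60 and PFI-2 at 10 µM they may be too high.

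TPM was tested as log2(TPM + 1), which understates changes of low genes, with limma 3.58.1 in R 4.3.3 (trend, Benjamini-Hochberg) over the 16002 genes reaching TPM 1 in 2 or more of the 44 screen samples. The fit against DMSO had 1 term per compound over all 44, and that within the flow cell used 14 compound means. Silent genes were compared by exact permutation over compounds (Python 3.11.15, scipy 1.17.1). Intervals are 95%. The fits were tested on simulated data, with changes planted only in genes with a mean log2(TPM + 1) above 1. Recovery meant an adjusted p below 0.05 in the right direction, without the fold threshold. By that measure 48 of 50 genes changed by a log2 of 1 were recovered for the EZH2 inhibitors against DMSO (16002 genes), with 7 false calls. Recovery by the full call rule, or of genes at lower levels, was not tested. Gene names, coordinates and groups came from the files and labels.

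The samples, gene lists and tests were chosen with earlier results of these data known. Named genes were up to 5 highest and 5 lowest calls of a comparison without small RNA names, a set of PRC2, cell cycle and sterol genes always named, and the 2 highest and 2 lowest of each list. For lists without calls the text mostly gives the lowest and highest member only. Genes named outside the rule were chosen after their values were seen. Alternatives covered pseudocount, scaling, filter, fold threshold, reference samples, voom and leaving out samples. Fits on parts of DMSO or of the doses were added after seeing the data. The 8 samples of the entinostat and N1302 experiments were not used here, and some genes that the rule names are not reported here.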

Additional observations from a re-analysis of the deposited data

Results flagged for a closer look

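The contrast of EZ-005 with UNC1999, tested within the same model, passed for CCDC80 (log2 difference -1.16), COL1A1 (-1.07), MIR6890 (-2.38) and MIR4723 (-2.48), all lower with EZ-005. MIR6890 was at 3.29 and 5.28 TPM with UNC1999 and listed at 0 with EZ-005, and it and MIR4723 rested on at most 2 reads. Among 46 measures of the 4 EZH2 inhibitor samples, 2 had a sample far from the others by Dixon's gap over range, and chance flags about 1 in 20 groups. In CDKN1A the ratio was 0.896, with EZ-005 at 10 µM at 50.6 TPM and the other 3 at 29.2 to 30.9 TPM. In SUZ12 the ratio was 0.858, with UNC1999 at 10 µM at 98.3 TPM and the other 3 at 103.4 to 104.3 TPM.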

How the results depend on the processing

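Of the 53 gene results followed through the alternatives (883 values), 685 kept direction and side of the threshold, 186 lost their call, 5 gained one and 7 changed sign, all of them differences from DMSO that were called in no fit. EZH2 became -0.0006 with median-ratio scaling, -0.0098 with voom, -0.0643 without EZ-005 1 µM, -0.0104 without UNC1999 1 µM and -0.1011 at 10 µM alone. KDM6B became -0.0201 without EZ-005 10 µM and -0.1234 at 1 µM alone. With 1 sample left out EZH2 ran from -0.0643 to 0.1172 and KDM6B from -0.0201 to 0.2611. The tests of silent genes (share and summed TPM) stayed above 0.05 in all 16 and 13 alternatives, and with a sample left out the differences ran from -0.637 to -0.506 percentage points and from -179 to -150.0 TPM. Counts of calls moved more, and the cause was not tested. For both inhibitors against DMSO (17 calls), 242 were called with no fold threshold, 28 with only the samples compared, 5 with DMSO averaged by concentration, 32 with voom, 3 with DMSO of C4JM1ACXX alone, 55 at 10 µM alone and 11 at 1 µM alone. Leaving out 1 sample gave 10 (without EZ-005 10 µM) to 28 (without EZ-005 1 µM), and 11 without the second DMSO sample of either concentration. For EZ-005 against DMSO (16 calls) the same settings gave 100, 43, 5, within 1.5 times, 3, 25 and 9, and leaving out 1 sample 8 (without the second 0.2% DMSO) to 26 (without EZ-005 1 µM). For UNC1999 against DMSO (14 calls) they gave 122, 34, 5, 29, 6, 82 and within 1.5 times, a pseudocount of 0.1 gave 23, a mean TPM of at least 5 gave 6, and leaving out 1 sample 10 (without the second 0.1% DMSO) to 76 (without UNC1999 1 µM). Against the flow cell, a mean TPM of at least 5 left 0 calls for both inhibitors and for each. For both (1 call) no filter gave 2, 6 other compounds 6, 10 µM alone 8, 1 µM alone 4 and leaving out 1 sample 0 to 2. For EZ-005 (13 calls) 1 term per compound gave 1, 6 other compounds 26 and leaving out 1 sample 10 to 17. For UNC1999 (7 calls) a pseudocount of 0.1 gave 17, no fold threshold 16, 6 other compounds 19, 10 µM alone 27, 1 µM alone 20 and leaving out 1 sample 7 to 27. EZ-005 against UNC1999 (4 calls) gave 2 with a mean TPM of at least 5, 0 with only the samples compared and 8 (without EZ-005 10 µM) to 25 (without UNC1999 1 µM) with 1 sample left out. The contrast of doses (6 calls) gave 16 with no filter, 1 with a mean TPM of at least 5 and 17 with no fold threshold. Silent genes called against DMSO (0) became 2 with voom, 1 at 10 µM alone (LOC102724050) and 0 to 1 with a sample left out, and against the flow cell (0) 1 at 10 µM alone (HSPA6) and 0 to 1. With a compound reduced to 1 sample, that sample is assumed to vary like the other groups. No paired analysis was possible because each treated group holds 1 sample and shares fewer than 2 replicate numbers with the DMSO groups. A term for the high or low level, which compound and DMSO labels share, was fitted instead, and called 19 genes for both inhibitors, 23 for EZ-005 and 14 for UNC1999 against DMSO and 4 between the compounds. The EZH2 inhibitor samples held fewer reads than DMSO, so a gene under TPM 1 rests on few reads there, and a rise within that range was not detectable at this depth. H3K27me3 was not measured in the data used here.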
